A study of Mus musculus with 17 samples.

Results

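Naive B cells from the spleen were compared between mice with a p52 knock-in (p52ki) and wild-type (WT) mice. The comparison used 6 of the 17 RNA sequencing libraries of the series, chosen by the genotype and cell population in the labels: WT replicates 1, 3 and 4, and p52ki replicates 2, 3 and 5. The remaining libraries were of activated B cells (3 of each genotype) and germinal centre (GC) B cells (3 WT and 2 p52ki), and were used only to follow genes found in naive cells. All cells were sorted by flow cytometry. The labels give the genotypes as WT and p52Ki and name no agent, dose or time for any group. What the knock-in allele changes in p52, its promoter, whether 1 or both copies were altered, and the strain, age, sex and immunisation of the mice were not given in the sources used here, nor were the sorting gates. Separate animals are not named as the source of the replicates, and the p-values therefore measure only a spread between samples that may be technical. Library numbers in the sample titles ran from 1 to 10 for the WT naive libraries and from 19 to 28 for the p52ki naive libraries, so anything that followed this order cannot be told apart from genotype.

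NF-kB is a family of transcription factors that work as pairs of subunits. The gene Nfkb2 encodes the precursor p100, which is cut to p52 after signals through receptors such as BAFF receptor and CD40, the noncanonical pathway that supports the survival of mature B cells. ETS1 belongs to a separate family of transcription factors, is abundant in resting lymphocytes and restrains the differentiation of B cells; the series is titled for a p52:ETS1 complex and germinal centres. Naive B cells are the resting, recirculating cells that precede activation, so the comparison asks what separates the genotypes before activation.

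The naive libraries held 7780482 to 9848870 counts and 18159 to 19625 genes with a count, and the 3 p52ki totals lay above the 3 WT totals (exact two-sided permutation p = 0.1, the smallest that 3 against 3 allows). Mitochondrial genes took 2.26% to 4.83% of counts and immunoglobulin genes 2.86% to 3.48%. The defining markers of the label were present: the B cell surface gene Ms4a1 (CD20) averaged 3830 ± 222 CPM in WT (SD, n = 3) and 3510 ± 270 CPM in p52ki (SD, n = 3). CPM is the count scaled to a common library total after TMM normalization. Ighd, the heavy chain of IgD carried by mature naive cells, averaged 4300 ± 327 CPM in WT and 4210 ± 145 CPM in p52ki (SD, n = 3). Summed T cell markers stood at 46.4 to 55.3 CPM in WT and 37.1 to 70.5 CPM in p52ki. Most of this sum was a single gene, Lck, at 47.3, 39.7 and 36 CPM in WT and 38.4, 51.4 and 30.8 CPM in p52ki. Trac was at 2.01, 1.39 and 2.97 against 2.08, 3.58 and 0.973 CPM, and Cd3e at 0.377, 0.886 and 0.903 against 1.85, 2.05 and 0.487 CPM. The sum therefore does not show whether the T cell genes other than Lck were even between genotypes. Summed myeloid and dendritic markers stood at 100 to 159 CPM in WT and 112 to 155 CPM in p52ki. Summed erythroid and platelet markers ran from 39.5 to 288 CPM in WT, where replicate 4 was highest, and from 90.8 to 124 CPM in p52ki. Natural killer (NK) cell markers differed more: the 11 genes summed to 9.94, 9.87 and 20.3 CPM in WT and to 31.7, 24.3 and 20.3 CPM in p52ki, and all 6 NK genes tested were nominally higher in p52ki. None of these 6 passed the test. The part of NK or T cell RNA in the results below was not tested.

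The resting transcriptomes were close. Over the 13294 genes tested of 55536 in the table, Spearman's rank correlation averaged 0.9787 over the 9 pairs of libraries from different genotypes, 0.9821 over the 3 WT pairs and 0.9778 over the 3 p52ki pairs. A WT and a p52ki library thus ranked genes about as alike as p52ki libraries did among themselves, and all 15 pairs share libraries with other pairs, so no test was made. In a principal component analysis the first component (30.7% of the variance) did not order the libraries by genotype, whereas on the second (24.5%) the WT libraries scored 24.9, 14.5 and 4.07 and the p52ki libraries -14.8, -21.8 and -6.87. Libraries within a genotype differed by more than counting error in every pair (chi-square over degrees of freedom 7.89 to 31).

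Differences were small for most genes. The fitted difference, p52ki minus WT on the log2 scale, was under 0.5 in size for 89.3% of genes and under 1 (2-fold) for 98.1%, with a median over all genes of 0.018. A p above the threshold does not show that levels are alike, so the 95% interval of each difference was also read. It lay wholly inside 2-fold for 10090 genes (75.9%). This share rose with the level of the gene: 3.85% of genes with a mean of 1 to 3 CPM, 54.6% of those at 3 to 10 CPM, 92.7% at 10 to 30 CPM, and 99.3% both at 30 to 100 CPM and at 100 CPM or more. Differences under 2-fold were therefore bounded for nearly all genes above 30 CPM, and were rarely bounded below 3 CPM.

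**Figure D1:**
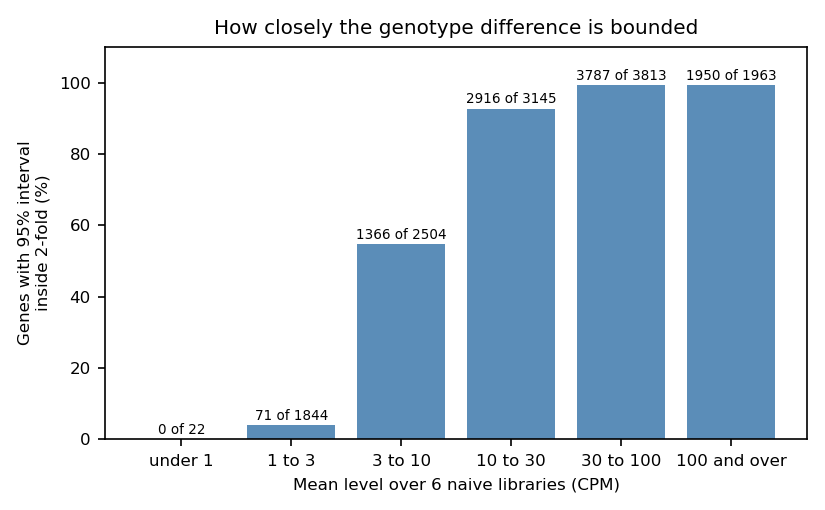
Bars give the share of genes (vertical axis, percent) whose 95% interval of the log2 difference between p52ki and WT lies inside 2-fold, in bins of the mean level over the 6 naive libraries (horizontal axis, CPM), with the counts above each bar. The share is 3.85% at 1 to 3 CPM and 99.3% at 100 CPM and over.

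For 4 abundant nuclear genes of naive cells the difference was bounded inside 2-fold. Per kilobase of exon, the kappa light chain constant region Igkc stood at 19600 CPM in WT and 19300 in p52ki, and the invariant chain Cd74, which guides MHC class II molecules, at 18800 and 18500. Tmsb4x, an actin-binding peptide gene, stood at 7250 CPM per kilobase in WT and 7390 in p52ki. B2m, the light chain of MHC class I, stood at 4660 and 5630. On the log2 scale the intervals of the difference were -0.42 to 0.38 for Igkc, -0.39 to 0.35 for Cd74, -0.41 to 0.47 for Tmsb4x and -0.15 to 0.7 for B2m. None of these 4 genes separated the genotypes, and their SEs, 0.174 to 0.207, were above the median of 0.145 at 100 CPM and over. The 7 mitochondrial genes among the 20 most abundant per kilobase all had negative log2 differences, from -0.13 for mt-Rnr2 to -0.45 for mt-Atp6 (interval -0.91 to 0.02), and all 7 intervals held 0.

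With edgeR's quasi-likelihood test and p-values adjusted by Benjamini-Hochberg across every gene tested, 13 genes passed an adjusted p under 0.05 (0.0978% of those tested): 3 higher in p52ki (0.0226%) and 10 lower (0.0752%). At an unadjusted p under 0.05 there were 737 genes (5.54%), 404 higher (3.04%) and 333 lower (2.5%). All 13 called genes also separated the genotypes, meaning that the lowest library of a genotype lay above the highest of the other. Separation alone was common: 1447 genes (10.9%) had no overlap, 728 higher in p52ki (5.48%) and 719 lower (5.41%), and 159 of the 1447 differed by over 2-fold. The number of called genes depended on single libraries: it was 2, 1 and 8 when WT replicate 1, 3 or 4 was left out, and 7, 16 and 23 when p52ki replicate 2, 3 or 5 was left out. DESeq2 called 31 genes, among them all 13, and a fit of all 17 libraries together called 0 (80 at an unadjusted p under 0.05). In that fit activated and GC cells share the estimate of spread, and 15352 genes were tested. Why it called fewer genes was not tested.

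**Figure D2:**
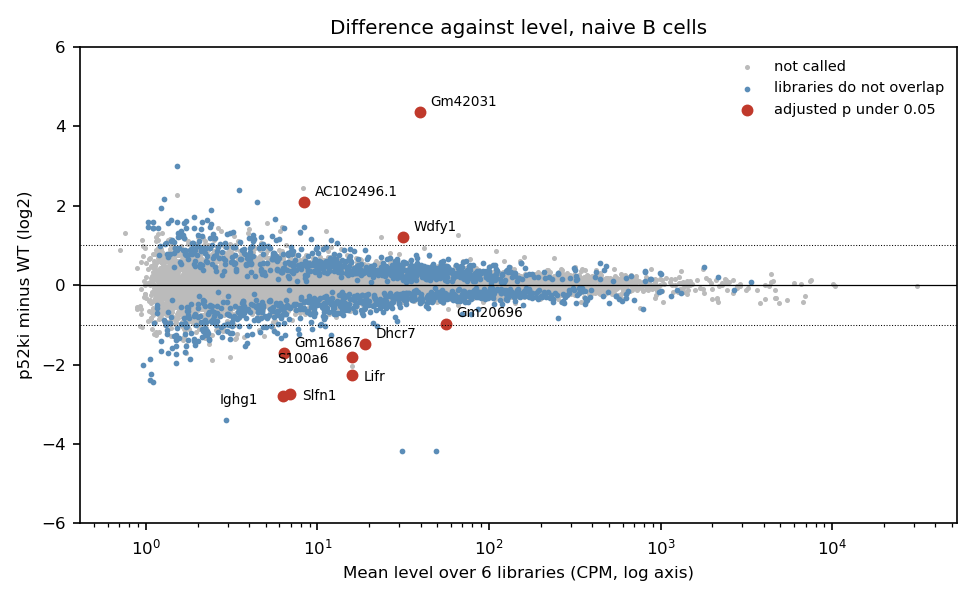
Each point is a gene: the horizontal axis gives its mean level over the 6 naive libraries (CPM, log axis) and the vertical axis p52ki minus WT (log2), with dotted lines at 2-fold. Blue marks genes whose libraries do not overlap and red the called genes; the 3 called genes with 0 counts in p52ki have no finite difference and are not drawn. Gm42031 stands highest at 4.36, and the mass of abundant genes lies between the dotted lines.

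Of the 13 called genes, 7 have predicted or unnamed symbols, 3 of them with no count in any p52ki library. These 3 share a sequence. Gm21860 and Gm21748 are predicted protein-coding genes of 309 bases on chromosome Y (chrY:90754513-90754821 and chrY:90838869-90839177, GRCm38, minus strand). G530011O06Rik is a processed transcript on chromosome X (chrX:169975043-169978917, minus strand), and lies inside Mid1, on the opposite strand; Mid1 encodes a microtubule-associated ubiquitin ligase and spans the edge of the pseudoautosomal region, which the X and Y chromosomes share. All 309 bases of both Y transcripts are found in the transcript of G530011O06Rik with 0 mismatches, so reads from these bases cannot be assigned to any of the 3. The transcript of G530011O06Rik runs to 2380 bases, and the identity covers only these 309. The first 90 bases of Gm21860 (chrY:90754732-90754821, minus strand, start codon in capitals) are shown because they carry this identity, from base 232 of the G530011O06Rik transcript on.
Gm21860: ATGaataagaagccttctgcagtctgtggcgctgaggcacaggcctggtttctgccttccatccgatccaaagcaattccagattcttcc
Gm21860 stood at 6.04, 11.1 and 3.61 CPM in the WT libraries and at 0 in all 3 p52ki libraries. Against a floor of 3 counts summed over the p52ki group it was at least 61.8-fold lower (adjusted p = 0.00658, edgeR). Gm21748 was at 3.4, 8.1 and 3.74 CPM against 0, at least 45.3-fold lower (adjusted p = 0.00658, edgeR), and G530011O06Rik at 4.4, 9.49 and 2.58 CPM against 0, at least 49-fold lower (adjusted p = 0.00963, edgeR). All 3 were highest in WT replicate 3. Genes nearby were low in p52ki as well without passing this test: Mid1 was at 4.28, 8.99 and 2.84 CPM in WT and 0, 0.512 and 0.973 CPM in p52ki (log2 difference -3.39, SE 0.729, adjusted p = 0.137, edgeR); DESeq2 called Mid1. Gm47283 on Y was at 85.3, 147 and 47 CPM against 8.9, 7.04 and 0 (adjusted p = 0.816, edgeR), and Gm21887 on X, which shares up to 529 identical bases with it, at 56.5, 85.7 and 33.2 CPM against 6.24, 3.71 and 0.0973 (adjusted p = 0.709, edgeR). Neither overlapped between genotypes, and reads from the shared bases cannot be assigned to X or Y. Both were called by edgeR without robust estimation, and Gm21887 also without p52ki replicate 5. The Y-linked genes Ddx3y, Eif2s3y, Kdm5d and Uty, which lie outside the shared region, had 0 counts in all 6 libraries, and Xist, the RNA of the inactive X, was at 417 to 603 CPM. Counts at the 3 called genes therefore came with no count at these 4 Y genes.

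**Figure D3:**
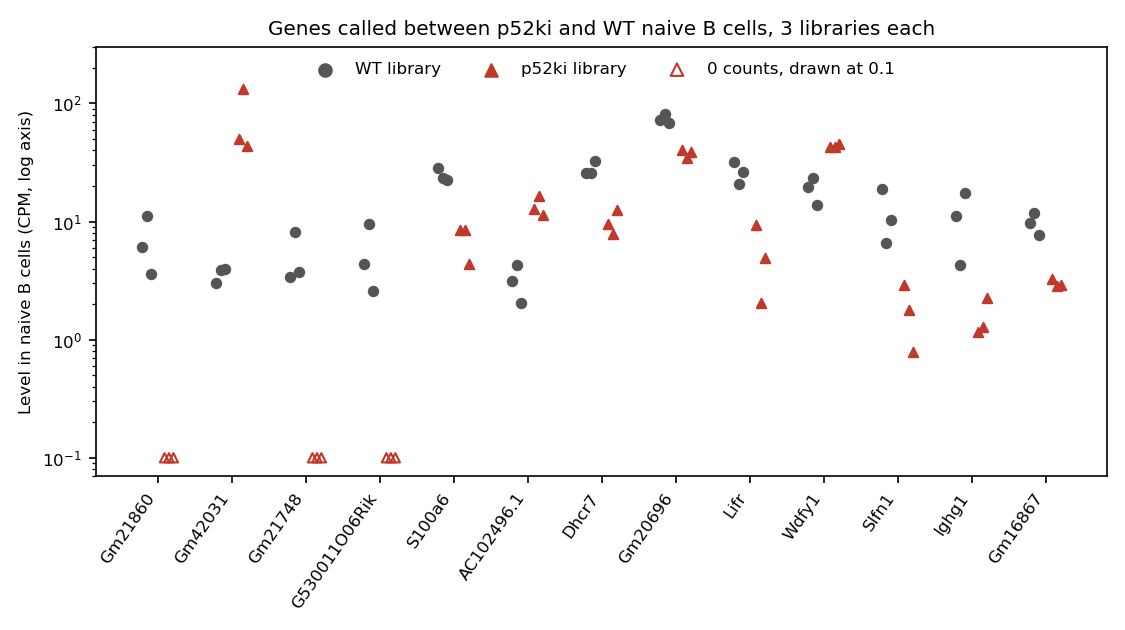
The level of each of the 13 called genes (vertical axis, CPM, log axis) in the 3 WT (grey circles) and 3 p52ki (red triangles) naive libraries; open triangles are libraries with 0 counts, drawn at 0.1. For no gene do the genotypes overlap, and the gap is widest for Gm42031 among the genes that were higher in p52ki.

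The gene with the largest rise was Gm42031, a long intergenic noncoding RNA (chr8:85125872-85132289, minus strand). It was at 3.02, 3.92 and 4 CPM in WT and at 49.6, 132 and 43.9 CPM in p52ki, a log2 difference of 4.36 (SE 0.446, adjusted p = 0.00658, edgeR). The p52ki libraries differed among themselves, replicate 3 being the highest, yet all lay far above the WT libraries. A second noncoding RNA, AC102496.1 (chr18:30267249-30272133), rose from 3.14, 4.3 and 2.06 CPM to 12.8, 16.5 and 11.4 CPM (log2 difference 2.09, SE 0.307, adjusted p = 0.0155, edgeR). The only protein-coding gene called higher was Wdfy1 (chr1:79702262-79776143), an endosomal protein that binds phosphoinositides and assists signalling by Toll-like receptors. Wdfy1 was at 19.7, 23.5 and 13.7 CPM in WT and at 43.1, 43.1 and 45.6 CPM in p52ki, a log2 difference of 1.21 (SE 0.2, adjusted p = 0.0353, edgeR). Its p52ki values were almost the same in all 3 libraries.

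Of the named protein-coding genes that fell, S100a6 (chr3:90612882-90624181), a small calcium-binding protein, was at 28.4, 23.3 and 22.6 CPM in WT and at 8.55, 8.45 and 4.38 CPM in p52ki, a log2 difference of -1.81 (SE 0.258, adjusted p = 0.015, edgeR). Dhcr7 (chr7:143823145-143848410), the enzyme of the last step of cholesterol synthesis, was at 25.5, 25.8 and 32.5 CPM against 9.59, 7.81 and 12.6 CPM, a log2 difference of -1.48 (SE 0.222, adjusted p = 0.0187, edgeR). Lifr (chr15:7090614-7197489), the receptor for leukaemia inhibitory factor, was at 31.7, 20.8 and 26.1 CPM against 9.36, 2.05 and 4.87 CPM, a log2 difference of -2.26 (SE 0.363, adjusted p = 0.031, edgeR). All 3 genes fell in every p52ki library, with Lifr the most variable among them. Slfn1 (chr11:83116849-83122670), a member of the Schlafen family linked to lymphocyte quiescence, was at 18.9, 6.58 and 10.3 CPM in WT and at 2.89, 1.79 and 0.779 CPM in p52ki, a log2 difference of -2.74 (SE 0.464, adjusted p = 0.0365, edgeR). Its neighbour Slfn2 was at 770, 574 and 686 CPM against 507, 492 and 548 CPM, without overlap but not called (log2 difference -0.39, adjusted p = 0.816, edgeR).

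The remaining genes that fell are harder to assign. Ighg1, the constant region of IgG1, which a B cell makes after class switching, was at 11.2, 4.3 and 17.4 CPM in WT and at 1.16, 1.28 and 2.24 CPM in p52ki, a log2 difference of -2.79 (SE 0.478, adjusted p = 0.0365, edgeR). It held a mean of 0.0949% of heavy chain constant counts in WT and 0.0132% in p52ki. Other switched classes did not fall with it. Ighg2b was at 7.55, 5.32 and 5.81 CPM in WT and 11.2, 30.5 and 7.2 CPM in p52ki. Igha was at 16.4, 9.11 and 7.61 CPM against 12, 21.4 and 22.4 CPM. Neither was called in the main fit, but edgeR called Ighg2b higher without a filter and without p52ki replicate 5. Summed markers of GC and plasma cells were at 409 to 476 CPM in WT and 386 to 425 CPM in p52ki. The largest part of each sum was Xbp1, at 292, 232 and 236 CPM in WT and 184, 211 and 209 CPM in p52ki. Of the 11 tested markers, Xbp1 was lower and Derl3 higher without overlap, beside 5.41% and 5.48% of all genes. The part of GC and plasma cells in the Ighg1 difference was not tested. Gm20696, a read-through model over Foxp1 and Eif4e3 on the same strand, was at 72.8, 82 and 68.4 CPM in WT and 40.4, 34.8 and 38.6 CPM in p52ki (log2 difference -0.97, SE 0.149, adjusted p = 0.02, edgeR). The genes it overlaps differed little: Foxp1, a transcription factor of B cell development, differed by 0.02 on the log2 scale (95% interval -0.25 to 0.3) and Eif4e3, a cap-binding protein, by 0.04 (-0.49 to 0.58). Gm16867 (chr14:69363504-69503362) overlaps Entpd4, a nucleotide-hydrolysing enzyme, on the opposite strand, and was at 9.69, 11.9 and 7.74 CPM against 3.24, 2.82 and 2.92 CPM (log2 difference -1.71, SE 0.296, adjusted p = 0.0441, edgeR). Entpd4 and its near copy Entpd4b were also lower in every p52ki library without being called by edgeR (voom called Entpd4b), at log2 differences of -0.58 and -1.1; the strand setting of the counting is not given, so reads of these genes may be shared.

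Promoters of 7 of the 13 called genes were found in the RefSeq table (GRCm38.p6). Of these, 4 are shown because p52 and ETS1 bind DNA, chosen after the search because they hold a match. Each is the 250 bases before the RefSeq start, 5′ to 3′ on the strand of the gene. Matches to a loose kappa B motif (GGGNNNNNCC) or an ETS core (CCGGAAG), either strand, are in capitals. The RefSeq start can differ from that of the gene span given above. The Gm42031 stretch lies wholly inside its span, and the S100a6 and Dhcr7 stretches end inside theirs. They are Gm42031 (chr8:85131815-85132064), S100a6 (chr3:90612644-90612893), Dhcr7 (chr7:143822917-143823166) and Slfn1 (chr11:83116570-83116819).
Gm42031: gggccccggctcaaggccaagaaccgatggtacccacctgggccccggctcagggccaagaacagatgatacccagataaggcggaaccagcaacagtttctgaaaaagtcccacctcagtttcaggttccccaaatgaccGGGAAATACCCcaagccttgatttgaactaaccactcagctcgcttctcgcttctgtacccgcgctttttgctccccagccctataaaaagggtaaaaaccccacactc
S100a6: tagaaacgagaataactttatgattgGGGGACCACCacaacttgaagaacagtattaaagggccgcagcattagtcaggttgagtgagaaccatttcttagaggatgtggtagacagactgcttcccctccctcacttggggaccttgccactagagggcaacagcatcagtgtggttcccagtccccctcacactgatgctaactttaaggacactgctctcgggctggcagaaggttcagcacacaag
Dhcr7: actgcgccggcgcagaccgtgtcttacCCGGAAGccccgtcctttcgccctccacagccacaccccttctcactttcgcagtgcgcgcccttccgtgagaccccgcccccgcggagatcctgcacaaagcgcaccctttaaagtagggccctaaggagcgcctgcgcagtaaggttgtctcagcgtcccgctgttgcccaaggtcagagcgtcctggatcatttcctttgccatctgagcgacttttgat
Slfn1: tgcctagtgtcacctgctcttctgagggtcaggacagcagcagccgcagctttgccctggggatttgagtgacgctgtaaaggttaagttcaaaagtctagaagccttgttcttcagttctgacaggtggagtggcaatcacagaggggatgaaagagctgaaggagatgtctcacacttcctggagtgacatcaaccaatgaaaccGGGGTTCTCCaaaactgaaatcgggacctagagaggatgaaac
The Gm42031 promoter holds a pair of overlapping kappa B matches, read on both strands, S100a6 and Slfn1 a single match each, and Dhcr7 an ETS match and no kappa B match. Of all 7 promoters 4 hold a kappa B match (Lifr is the other), 1 an ETS match and 2, G530011O06Rik and Gm16867, neither. Such letters are common: 60.3% of 11207 promoters of tested genes hold the kappa B motif and 14.9% the ETS core. A match describes the sequence and says nothing of binding.

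No gene of the NF-kB and ETS families was called by edgeR (0.0978% of all genes were), and most were tightly bounded. Nfkb2, the gene of p52 itself, was at 142, 151 and 180 CPM in WT and 171, 135 and 212 CPM in p52ki, a log2 difference of 0.13 (95% interval -0.23 to 0.49). The table counts whole genes and so cannot show what the knock-in changed in the protein. Ets1 was at 572, 585 and 614 CPM in WT and 628, 507 and 649 CPM in p52ki, a log2 difference of 0.01 (95% interval -0.29 to 0.31). The partner subunits Rela, Relb and Rel differed by 0, 0.02 and -0.1 on the log2 scale, with all 3 intervals between -0.39 and 0.31. Nfkb1, which encodes p105 and p50, was the only subunit whose libraries did not overlap (10.9% of all genes did not). It was at 85.4, 86.9 and 80.4 CPM in WT and 105, 112 and 96.5 CPM in p52ki. Its log2 difference was 0.31 (SE 0.134, 95% interval 0.03 to 0.6, unadjusted p = 0.0336, adjusted p = 0.868, edgeR).

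Inhibitors and pathway components were bounded inside 2-fold, as were most genes of their level. Of 10 IkB and feedback genes and 15 tested genes of the noncanonical pathway, 0 were called (0.0978% of all genes were). All 25 intervals lay inside 2-fold, beside 92.7% of all genes at 10 to 30 CPM and 99.3% at 30 to 100 CPM. Medians were 0.13 and -0.01 on the log2 scale, against 0.02 over all genes tested. At an unadjusted p under 0.05 (5.54% of all genes) the former list had 0 genes and the latter 1, Traf6, lower in p52ki. Nfkbia, the inhibitor IkB-alpha, differed by 0.19 (-0.11 to 0.49), Map3k14, the kinase NIK that starts p100 processing, by 0.26 (-0.19 to 0.71), and Traf3, which targets NIK for degradation, by 0.07 (-0.31 to 0.45). Traf6, an adaptor of Toll-like receptor and CD40 signalling, showed the lowest value of these, at -0.43 (-0.86 to 0). The receptors Tnfrsf13c (BAFF receptor) and Cd40 differed by -0.01 (-0.3 to 0.27) and 0.12 (-0.17 to 0.4). Among 16 tested ETS factors, 0 were called (0.0978% of all genes) and 0 had an unadjusted p under 0.05 (5.54%). Of their intervals 14 lay inside 2-fold (75.9% of all genes). The exceptions were Elk1 and Etv6, whose intervals reached 1.01 and 1.05.

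**Figure D4:**
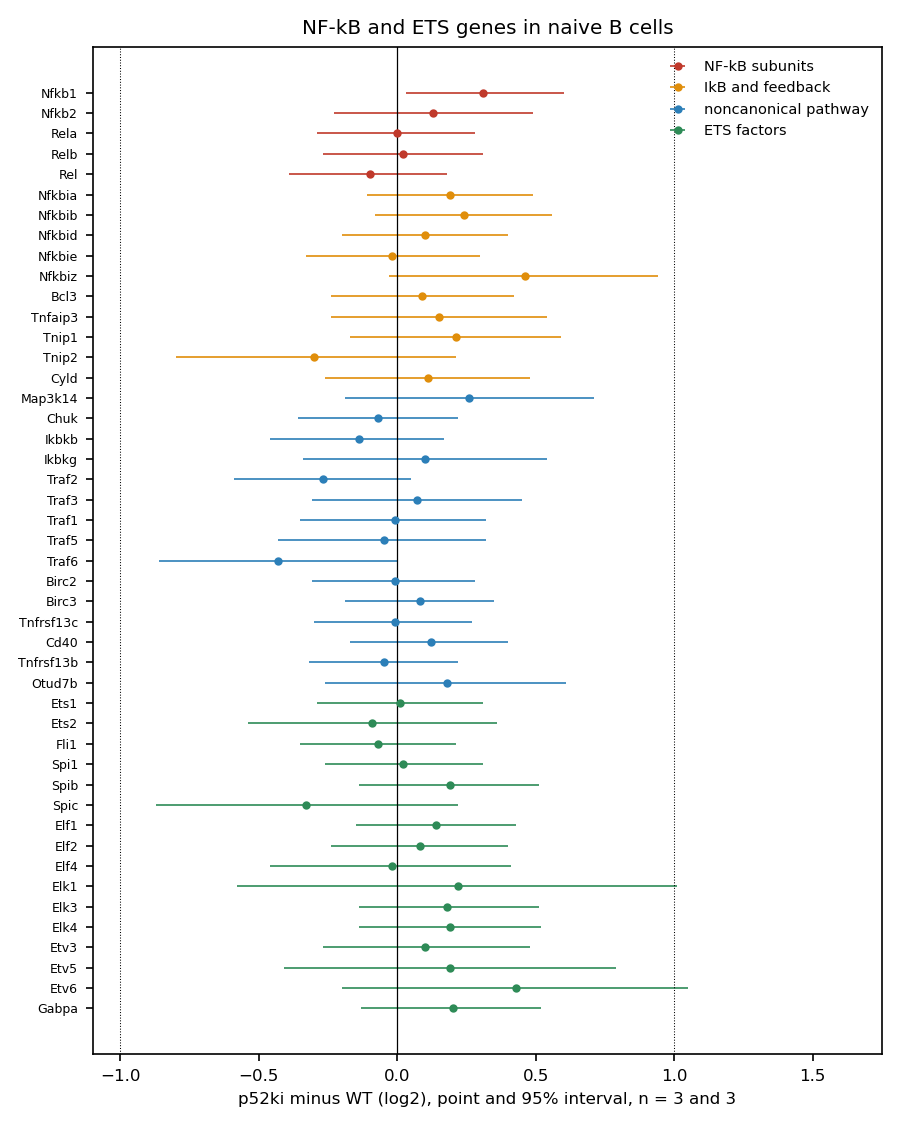
Points give p52ki minus WT (log2, horizontal axis) and bars its 95% interval for NF-kB subunits (red), IkB and feedback genes (orange), the noncanonical pathway (blue) and ETS factors (green) in naive cells, 3 libraries each; dotted lines mark 2-fold. Only the intervals of Elk1 and Etv6 pass a dotted line, and those of Nfkb1 and Traf6 lie to a side of 0.

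Among 28 tested genes listed as NF-kB targets in B cells, 0 were called by edgeR (0.0978% of all genes were); at an unadjusted p under 0.05 there were 1 higher (3.04% of all genes) and 3 lower (2.5%), and the median was 0.09 against 0.02 over all genes. Cd83, a surface protein that stabilises MHC class II, was at 1080, 889 and 875 CPM in WT and 599, 726 and 558 CPM in p52ki (log2 difference -0.6, SE 0.152, adjusted p = 0.422, edgeR). DESeq2 and voom called Cd83, as did edgeR without p52ki replicate 3. Il4i1, a secreted amino acid oxidase, was at 154, 129 and 130 CPM against 99.6, 93.4 and 105 CPM (log2 difference -0.47, adjusted p = 0.587, edgeR). Cr2 (CD21), the complement receptor, was at 666, 777 and 672 CPM against 971, 858 and 894 CPM (log2 difference 0.37, adjusted p = 0.816, edgeR). Over the 28 genes, 2 were higher and 3 lower in p52ki without overlap, beside 5.48% and 5.41% of all genes. They were these 3 genes, Ebi3 (higher) and Slfn2 (lower). Slfn2 was also the remaining lower gene with an unadjusted p under 0.05.

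Identity genes of follicular B cells were closely bounded, as were nearly all genes of their level. Of 22 tested, 0 were called (0.0978% of all genes were), with a median of -0.01. All 22 intervals lay inside 2-fold, beside 99.3% of all genes at 100 CPM or more. Cr2 was higher and Ebf1 lower in p52ki without overlap, beside 5.48% and 5.41% of all genes. The chemokine receptor Ccr7, which guides cells into lymph nodes, differed by -0.17 (-0.52 to 0.17), and the transcription factors Bach2 and Foxo1 by 0.17 (-0.15 to 0.49) and 0.05 (-0.24 to 0.35). All 23 genes of B cell receptor signalling and all 12 of MHC class II presentation had intervals inside 2-fold as well, with medians of 0.07 and -0.01. Among all genes the share was 99.3% both at 30 to 100 CPM and at 100 CPM or more, the levels of these genes. Marginal zone and B-1 genes were less even: 0 of 19 were called by edgeR (0.0978% of all genes were), while DESeq2 called Ptpn22. At an unadjusted p under 0.05 there were 6 (5.54% of all genes), all without overlap between genotypes (10.9%). Higher in p52ki were Myof, a membrane repair protein (7.42, 8.73 and 6.45 against 14.7, 16.8 and 13 CPM), S1pr3, a sphingosine phosphate receptor (15, 24.7 and 19.9 against 30.2, 30.2 and 33 CPM), Dtx1 and the Notch target Hes1. Lower were Ptpn22, a phosphatase that dampens antigen receptor signals (96.5, 84.5 and 78.3 against 61.4, 46.2 and 49.1 CPM), and Zbtb32, a repressor of memory B cell responses (3.52, 8.35 and 5.29 against 2.08, 2.18 and 2.04 CPM). The defining marginal zone markers Cd9 and Cd1d1 differed by -0.12 (-0.53 to 0.3) and 0.06 (-0.23 to 0.34). In bulk libraries a different number of cells of a type and a different level per cell cannot be told apart.

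Below the called genes stood named genes that separated the genotypes with small p-values. The highest ranked of those higher in p52ki were Ppp1r9b, an actin-binding scaffold of protein phosphatase, at 7.67, 7.34 and 7.35 CPM in WT and 16.8, 15.9 and 16.9 CPM in p52ki (log2 difference 1.15, SE 0.215, adjusted p = 0.0905, edgeR), and Cenpb, a centromere protein, at 4.91, 4.3 and 4.13 against 10.7, 12.3 and 11 CPM (log2 difference 1.35, SE 0.256, adjusted p = 0.0905, edgeR). Tspan15, a tetraspanin, was at 2.89, 3.29 and 1.94 CPM in WT and 7.4, 8.45 and 9.93 CPM in p52ki. Alpl, alkaline phosphatase, was at 1.89, 2.53 and 0.645 against 8.09, 4.61 and 9.05 CPM. Helz2, an interferon-inducible helicase, moved less but with little spread, at 79.5, 76.9 and 66.1 CPM against 110, 110 and 111 CPM (log2 difference 0.57). Dynlt1b, Nedd4, Bivm and Ino80 completed the higher set, with log2 differences of 0.75 to 1.45. Of genes lower in p52ki, Samsn1, an adaptor that limits B cell activation, stood at 329, 291 and 347 CPM in WT and 220, 183 and 146 CPM in p52ki (log2 difference -0.82, SE 0.157, adjusted p = 0.0945, edgeR). Hace1, a ubiquitin ligase, fell short of the threshold too, at 38.2, 34 and 35 against 20.9, 18.3 and 22.6 CPM, as did Zfp169, a zinc finger protein, at 13.1, 14.3 and 14.2 against 7.74, 6.14 and 7.3 CPM. DESeq2 called Ppp1r9b, Cenpb, Tspan15, Alpl, Dynlt1b, Nedd4, Bivm, Samsn1, Hace1 and Ptpn22.

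The called genes were then read in the activated and GC libraries, each stage fitted alone; replicate numbers recur across stages, so these may be the same mice and are not counted as independent. In activated cells all 13 called genes were tested, all 13 differed in the same direction as in naive cells, 11 did so without overlap (6.05% of all genes tested there had none), 11 had an unadjusted p under 0.05 (1.81%) and 3 passed the test (0.0219%): Gm21860 (adjusted p = 0.0162), Gm42031 (0.0476) and Gm21748 (0.0476), by edgeR. In GC cells, where 0 genes of 12620 were called by edgeR (0% of those tested, with 951 or 7.54% at an unadjusted p under 0.05), 10 of the 12 tested differed in the same direction, the exceptions being S100a6 and Gm20696, and 7 did so without overlap, against 28.6% of all genes without overlap in either direction. Gm42031 was at 2, 6.38 and 3.29 CPM in WT activated cells and at 53.6, 173 and 50.5 CPM in p52ki activated cells, and at 3.67, 5.69 and 3.07 against 50 and 128 CPM in GC cells. Replicate 3 was the highest of the p52ki libraries in both naive and activated cells. Wdfy1 kept its separation in activated cells, at 17.2, 17.7 and 12.8 against 49.8, 40.7 and 48.2 CPM. Levels were scaled within each stage, so only the genotypes of a stage are compared. S100a6 in activated cells was at 120, 49.3 and 66.1 CPM in WT and 20.6, 8.59 and 14.9 CPM in p52ki, again without overlap. In GC cells it overlapped and the fitted value had the other sign, at 1.07, 23.6 and 3.07 CPM in WT and 28.1 and 4.76 CPM in p52ki (log2 difference 0.84, SE 1.64). Ighg1 was at 2440, 1150 and 8390 CPM in WT activated cells and 302, 158 and 103 CPM in p52ki.

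Lifr and Gm20696 were the exceptions in activated cells. Lifr was at 8.89, 11.8 and 16.2 CPM in WT and 13.8, 7.77 and 12.8 CPM in p52ki (log2 difference -0.1), and Gm20696 at 37.2, 73.9 and 87.8 against 79, 52.1 and 56.6 CPM (-0.09). A fit of naive and activated libraries together, made after these values were seen, tested whether the genotype difference changed between the stages: 0 of 14348 genes were called by edgeR, 247 had an unadjusted p under 0.05, and Lifr gave a change of 2.14 (SE 0.571, unadjusted p = 0.00192, adjusted p = 1). Naive and activated libraries of the same genotype and replicate number deviated from their group means together, with correlations across genes of 0.1 to 0.3 in the 6 pairs. With genotype and replicate number as a block, a fit also added after the values were seen, 1 gene was called (0.00697%), the variable segment Ighv1-72. Lifr then gave 2.3 (SE 0.435, unadjusted p = 0.000161, adjusted p = 0.398) and Gm20696 0.93 (SE 0.307, unadjusted p = 0.0103, adjusted p = 1). Neither gene passed the test of a difference between stages in either fit.

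**Figure D5:**
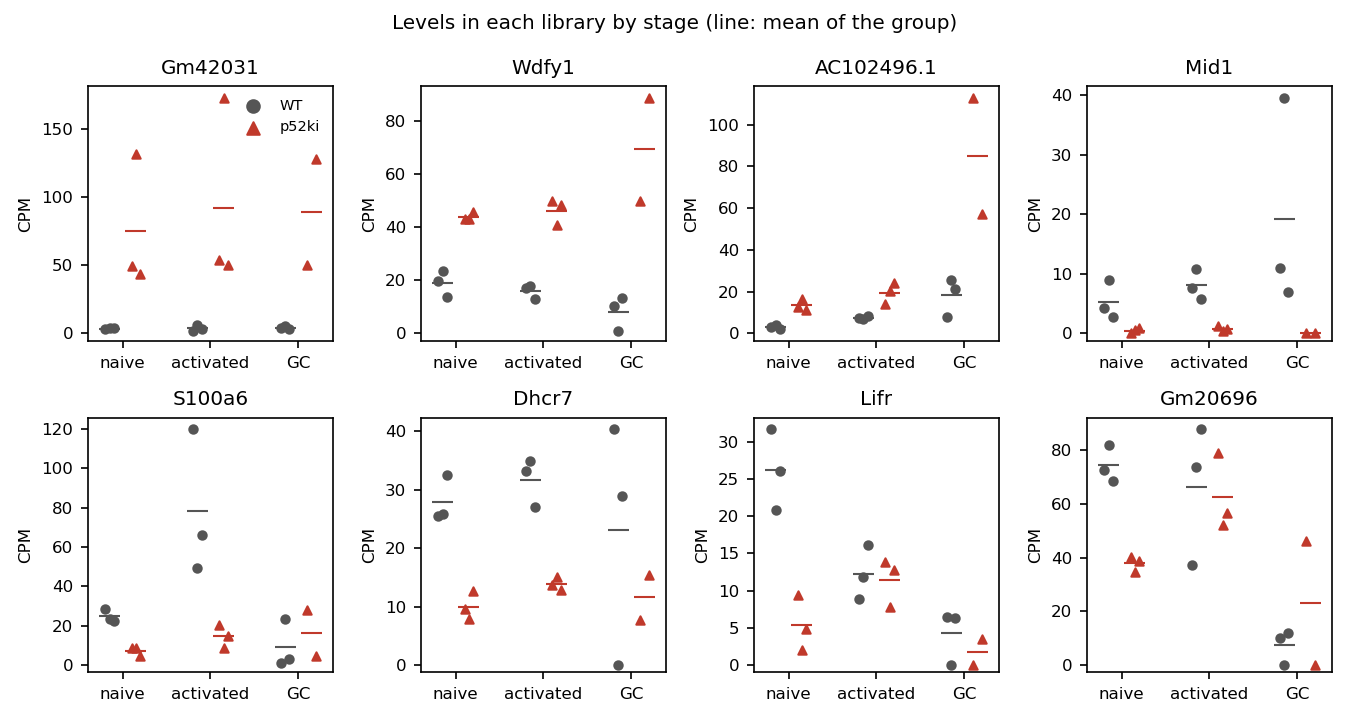
Levels (vertical axes, CPM) of 7 called genes and Mid1 in all 17 libraries by stage (horizontal axis); grey circles are WT, red triangles p52ki, and short lines group means. Gm42031, Wdfy1 and AC102496.1 are higher and Mid1 is lower in p52ki at each stage without overlap, whereas Lifr and Gm20696 overlap between genotypes in activated and GC cells.

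Over all separated genes, called ones included, separation in naive cells carried over to activated cells in few genes. Of 710 genes that were higher in p52ki naive cells without overlap and tested in both stages, 46 (6.48%) were separated the same way in activated cells and 5 (0.704%) the opposite way, beside 3.35% and 2.51% of all genes tested in both. Of 702 lower genes, 51 (7.26%) were lower and 14 (1.99%) higher, beside 2.51% and 3.35%. In GC cells the shares lay nearer those of all genes. Of 645 higher genes, 14.1% were separated the same way and 15.2% the opposite way, beside 12.5% and 16.1%. Of 621 lower genes the shares were 18.8% and 12.1%, beside 16.1% and 12.5%. Over all 3 stages 30 of 11862 genes (0.253%) kept the same direction without overlap, 15 higher and 15 lower. They include 7 of the called genes (Gm21860, Gm42031, Gm21748, G530011O06Rik, AC102496.1, Wdfy1 and Ighg1), and Mid1, Gm47283 and Gm21887. Others, chosen for mention after their values were seen, were the dynein light chains Dynlt1b and Dynlt1a, near copies whose reads may be split, and the transcription factors Runx3 and E2f3. In naive cells Dynlt1b was at 37, 31.3 and 32 CPM in WT and 53.9, 65.9 and 49.2 CPM in p52ki. Runx3 was at 45.4, 34.3 and 44.6 CPM against 56.3, 46.7 and 57.3 CPM. In naive cells edgeR called none of these 4, and DESeq2 and voom called Dynlt1b.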

How the data were processed

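RNA was extracted from sorted cells, and cDNA was amplified by SMARTSeq v2 with no molecular identifiers named in the labels, so floors cover counting error only. Per the submitters' processing notes the authors used GRCm38, HISAT2 2.1.0, SAMtools 1.8, and Subread 1.6.2 with featureCounts; strand setting and treatment of multiply matching reads were not given in the sources used here. Deposited values are raw counts per gene. All 55536 identifiers matched GENCODE mouse release 21.

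The 6 naive libraries (7780482 to 9848870 counts) were fitted alone with edgeR 4.0.16 in R 4.3.3 (filterByExpr, TMM, robust glmQLFit, glmQLFTest, Benjamini-Hochberg over 13294 genes, called under 0.05). Intervals are Wald intervals at 95%. A fold against a group at 0 counts used a floor of 3 counts over the group. The genotypes share only replicate number 3, so nothing was paired. Named were NF-kB subunits and Ets1, all called genes, up to 10 separated genes per direction with the smallest p and a mean of at least 5 CPM (variable segments and predicted genes left out), up to 4 members per list with the smallest p, defining list members whose interval was the point, and abundant genes; some genes the rule names are not reported here. The comparison, members and gene lists were chosen with earlier results of these data known. On simulated counts for this comparison (13033 genes), 62.8% of 94 genes changed 2-fold and 95.8% of 95 changed 4-fold were recovered, with 5 false calls. The simulated spread followed only the level of a gene, without differences in spread between genes of 1 level. More genes were changed than the real fit called, which eases the adjusted threshold. These shares are therefore not the power of the real comparison. Alternatives were RLE scaling, other filters, DESeq2 1.42.0, limma 3.58.1 (voom), all 17 libraries in 1 fit, no immunoglobulin genes, no robust estimation, and leaving out each library.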

Additional observations from a re-analysis of the deposited data

How the results depend on the processing

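Without a filter on low counts there were 40 called genes (20 higher, 20 lower) and the mean rank correlation between genotypes was 0.9478; with a filter at 5 CPM it was 0.973. DESeq2 called 31 genes (13 higher, 18 lower) and limma voom with sample weights 32 (14 higher, 18 lower). With all 17 libraries in 1 fit 0 genes were called (0 higher, 0 lower, 80 at an unadjusted p under 0.05) and 4117 intervals lay inside 2-fold. The 13 genes were kept by DESeq2 and without a filter, and 12 of them by voom, which lost Ighg1. Elsewhere in the text, calls by edgeR in naive cells are those of the main fit unless another fit is named. Leaving out each library gave 1 to 23 called genes (0 to 8 higher, 1 to 15 lower), 2345 to 3558 separated genes, 9275 to 9702 intervals inside 2-fold and correlations of 0.9772 to 0.9799. Separation is easier to reach with fewer libraries. No called gene stayed called in all 6 of these fits: Gm21860 and Gm21748 did in 5, and Gm42031, S100a6 and G530011O06Rik in 4. Wdfy1, Dhcr7, Lifr, Slfn1, Ighg1, Gm20696 and AC102496.1 stayed called in only 2 of the 6, and Gm16867 in 1. Of 1612 values recomputed for 116 named genes over all alternatives, 0 called values changed sign, 55 lost a call and 49 gained it. Only values of the 13 called genes could lose a call, so the 55 losses all fell on them. Among genes not called whose interval held 0, 42 values of 21 genes changed sign. The cause of these changes was not tested. No paired analysis was possible because the genotypes share only replicate number 3. In the fit of naive and activated libraries together, the replicate block, added after seeing the data, moved the number of genes called for a change between stages from 0 to 1. Depth limits genes under 3 CPM, where few differences under 2-fold were bounded.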

Other observations

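Immediate early and interferon-induced genes had mostly positive differences, without a call by edgeR in the main fit. Of 19 tested immediate early genes, which are induced within minutes of a stimulus, 18 had positive differences (53.1% of all genes did), with a median of 0.29 on the log2 scale against 0.02 over all genes; 0 were called (0.0978% of all genes were) and 2 had an unadjusted p under 0.05 (5.54% of all genes). Summed immediate early genes overlapped, at 3880 to 7170 CPM in WT and 4290 to 7770 CPM in p52ki. The growth regulator Myc was at 83.1, 122 and 157 CPM in WT and 231, 259 and 104 CPM in p52ki, and Nr4a1, a nuclear receptor induced by antigen receptor signals, at 22.6, 29.7 and 64.5 against 123, 116 and 40.3 CPM. In both genes p52ki replicate 5 lay within the WT range and replicates 2 and 3 above it. With p52ki replicate 5 left out, edgeR called Myc. Of 27 interferon-induced genes 20 were positive, with a median of 0.21 and 0 called. Trim30a, an interferon-induced regulator of NF-kB signalling, was at 107, 121 and 144 CPM in WT and 197, 191 and 158 CPM in p52ki (log2 difference 0.56, SE 0.15, adjusted p = 0.48, edgeR). Summed interferon-induced genes overlapped, at 1680 to 1760 CPM in WT and 1720 to 1910 CPM in p52ki.

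Of 14 tested survival genes of the BCL2 family, 2 were higher in p52ki without overlap and 0 lower. Of 18 tested migration receptors, 5 were higher without overlap and 0 lower. Over all genes tested the shares were 5.48% higher and 5.41% lower. The pro-apoptotic gene Bbc3 (PUMA) was at 0.755, 0.886 and 0.903 CPM in WT against 2.31, 1.66 and 3.5 CPM in p52ki. Bmf, also pro-apoptotic, was at 2.77, 3.42 and 3.35 against 8.67, 4.35 and 6.42 CPM. The other pro-apoptotic genes tested overlapped between genotypes, with log2 differences from -0.09 for Bcl2l11 to 0.62 for Pmaip1. The anti-apoptotic Bcl2 and Mcl1 differed by -0.04 (95% interval -0.36 to 0.27) and -0.07 (-0.36 to 0.21). The other anti-apoptotic genes overlapped too, from 0.11 for Bcl2a1d to 0.35 for Bcl2a1a. Ackr3, a scavenging receptor for CXCL12, was at 0.377, 0.633 and 2.32 CPM in WT and 5.66, 9.6 and 2.34 CPM in p52ki, where replicate 5 barely exceeded the highest WT library. The integrin Itgal was at 64.4, 67.5 and 66.2 against 89, 77 and 96.3 CPM. None of these genes was called by edgeR in the main fit. Ackr3 was called by DESeq2, and by edgeR without a filter and without p52ki replicate 5. Proliferation genes had a median of 0.01 over 19 tested, with 0 called (0.0978% of all genes) and 1, Mcm4, at an unadjusted p under 0.05 (5.54%). The 137 tested genes within 10 Mb of Nfkb2 held 0 genes called by edgeR and 15 separated genes (10.9%, as over all genes), with 12 (8.76%) at an unadjusted p under 0.05 against 5.54% over all genes.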
